A study of Mus musculus with 17 samples.

Results

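Whole mouse embryos at E12.5 from 2 lines with different mutations of Klf3 were compared with each other, irrespective of whether an embryo carried 1 or 2 mutant alleles. The CH line contributed 6 arrays and the H275R line contributed 7, so that 13 of the 17 arrays in the series entered the comparison. The other 4 arrays were of wild-type (WT) embryos and were held out, and were then placed on the transcripts that separated the lines. All 39137 probe sets on the array were examined.

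The 6 CH embryos were 4 homozygotes and 2 heterozygotes for a gene trap, a vector inserted in the first intron of Klf3 in embryonic stem cells and meant to interrupt the transcript, and the line was kept on a mixed C57BL/6 and 129 background. The 7 H275R embryos were 3 homozygotes (Klf3 H275R/H275R) and 4 heterozygotes (Klf3 H275R/+) for a chemically induced point mutation that replaces a histidine with an arginine in the first zinc finger of the protein and is not meant to remove the transcript. The H275R mutation arose in offspring of C57BL/6J males treated with ethylnitrosourea and C3H/HeJ females, was mapped using other strains, and was then bred to C57BL/6J. The 4 WT embryos were Klf3+/+. One array was made per embryo RNA, and litters were said to be matched where possible, although neither litter nor line of origin was given for any array. The sex of the embryos was not given either. Each line was therefore 1 allele on 1 breeding history, and allele, strain background and litter cannot be told apart in any difference between the lines.

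KLF3 is a zinc finger transcription factor of the Kruppel-like family that binds CACCC boxes in promoters and mostly represses them, partly by recruiting the corepressor CtBP. It is best known from erythroid cells, where its own transcription is driven by KLF1, and from fat and B cells. An embryo at this stage holds a blood-forming liver, a septating heart, condensing cartilage and an expanding nervous system, so that each array averaged over many tissues, and fewer cells of a type could not be told apart from less RNA per cell.

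The arrays were of similar overall level, with medians between 6.68 and 6.78 on the log2 scale of the deposited values, and any pair of arrays correlated at 0.981 or above over all probe sets. Transcripts of tissues of an embryo at this stage were high on all arrays, including the embryonic globin Hbb-y (11.8 to 12.6) and the fetal liver product Afp (10.9 to 12.3). The trophoblast gene Ctsq was low throughout (3.39 to 3.99), and Tpbpa, another trophoblast gene, was low in 16 arrays (4.45 to 5.16) and stood apart at 7.55 in WT 4. Y-linked transcripts were high in CH homozygote 3, CH heterozygote 1, H275R homozygote 1 and WT 2 and low in the other 13 arrays, so both lines held arrays of either kind. WT 4 stood apart from the other WT arrays on many of the transcripts below, and no test between the lines used it.

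Klf3 itself was examined first. The CH homozygotes had Klf3 values of 5.27, 5.62, 5.73 and 6.13, and the CH heterozygotes had 9.64 and 9.09. The H275R homozygotes had 9.65, 9.33 and 9.38, and the H275R heterozygotes had 9.66, 9.70, 9.57 and 9.45. The WT arrays had 9.80, 9.48, 9.61 and 9.55. Only the CH homozygotes stood apart, the CH heterozygotes lay close to or within the H275R range, and no WT array was low. Averaged over the lines, Klf3 was 6.91 ± 1.93 in CH and 9.54 ± 0.15 in H275R (SD, n = 6 and 7), a difference of -2.62 ± 0.64 (SE; limma, adjusted p = 0.0442), and the lines overlapped. Klf3 therefore passed the test between the lines without belonging to the transcripts that separate them.

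A moderated linear model (limma) with 1 mean for each line gave an adjusted p (Benjamini-Hochberg, over all probe sets) below 0.1 for 2453 of 39137 probe sets, or 6.27%, and a transcript that passed this threshold is said below to have risen or fallen in CH embryos. Of these, 1321 were higher in CH embryos (3.38%) and 1132 were lower (2.89%). This balance depended on scaling: when each array was centred on its median, 938 probe sets were higher and 1531 were lower, and when array quantiles were equalised again, 1191 were higher and 1543 were lower. The number that passed also depended on single arrays, and fell to 1323 without CH homozygote 3 and was 1511 or fewer on leaving out CH homozygote 4, CH heterozygote 2, H275R homozygote 1, H275R heterozygote 1 or H275R heterozygote 2.

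A stricter description asked that every CH array lie above, or every CH array lie below, every H275R array. This held for 813 probe sets (2.08%), of which 401 were higher (1.02%) and 412 were lower (1.05%) in CH embryos. With each array centred on its median, 249 of 802 such probe sets were higher, and with quantiles equalised again, 345 of 888. The p-values given below for these transcripts come from the same contrast as this rule and describe them only. Of the 813 probe sets, 736 also passed the test and 77 did not, while another 1717 passed but overlapped. The difference between the line means was between 0.085 and 2.52 in size with a median of 0.34, and it was more than 2-fold for only 22 probe sets. The empty interval between the lines was narrow, with a median of 0.043 log2 units and a maximum of 0.69. It was below 0.05 for 444 of the 813, and 1173 further probe sets missed the rule by less than the same amount, so membership at the edge was decided by small distances. A single gene symbol was available for 578 of the 813, representing 556 genes of 22180 measured (2.51%), and 221 of these genes were higher and 335 were lower in CH embryos.

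Snora31 had the smallest p of any transcript higher in CH embryos. It encodes an H/ACA box small nucleolar RNA (snoRNA), a class that guides the isomerisation of uridine to pseudouridine in ribosomal RNA. Its values were between 8.36 and 8.65 with a median of 8.40 in the 6 CH arrays, and between 7.15 and 7.67 with a median of 7.42 in the 7 H275R arrays. CH homozygotes and heterozygotes were interspersed, and a gap of 0.69 separated the lines, the widest of any probe set. The difference was 1.05 ± 0.08 (SE), or 2.06-fold (adjusted p = 0.000162). The WT arrays had 7.58, 7.38, 7.78 and 8.26, so that WT 4 lay nearest the CH arrays but reached none of them.

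Slc6a16, an orphan member of the sodium-dependent neurotransmitter transporter family, had values between 6.88 and 7.53 with a median of 7.14 in CH arrays and between 5.76 and 6.47 with a median of 6.05 in H275R arrays. The difference was 1.06 ± 0.12 (2.09-fold, adjusted p = 0.00125). WT 1, WT 2 and WT 3 had 5.89, 5.92 and 6.31, within the H275R range, and WT 4 had 6.95, within the CH range. Snrpa1, which encodes a protein of the U2 small nuclear ribonucleoprotein, repeated this arrangement: it was 10.65 ± 0.21 in CH arrays, 9.67 ± 0.10 in H275R arrays (difference 0.99, adjusted p = 0.000277), 9.62 to 9.87 in WT 1 to WT 3, and 10.95 in WT 4. Mid1, an X-linked ubiquitin ligase of microtubules, differed by 1.28 (adjusted p = 0.000371), and a second probe set of the gene differed by 1.31 and also did not overlap. WT 4 had 12.60 for Mid1, above every other array of the series.

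**Figure D1:**
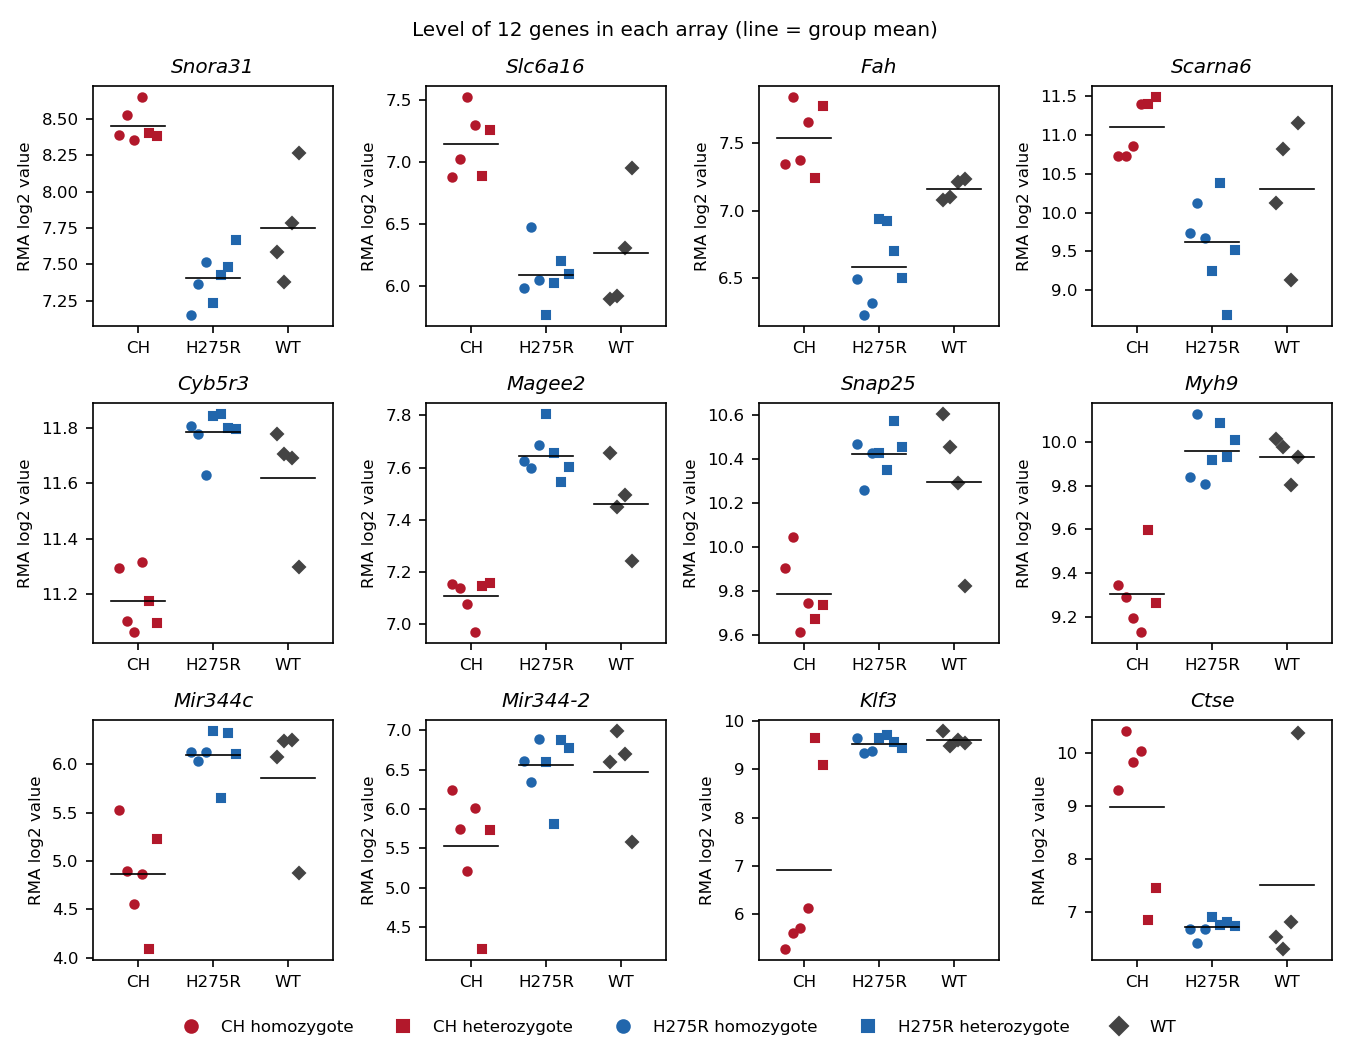
RMA log2 values of 12 genes in each of the 17 arrays, with CH arrays in red, H275R arrays in blue and WT arrays in grey; circles are homozygotes, squares heterozygotes, diamonds WT, and horizontal lines are group means. For Snora31, Slc6a16, Scarna6 and Fah all 6 CH arrays lie above all 7 H275R arrays, and for Cyb5r3, Magee2, Snap25, Myh9 and Mir344c they lie below them; in Ctse, WT 4 (10.39) lies with the CH homozygotes.

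Other genes of high rank among those that rose in CH embryos included the tyrosine catabolic enzyme Fah (0.96, adjusted p = 0.00556), the coenzyme Q prenyltransferase Coq2 (0.64, adjusted p = 0.00226), the lymphocyte GTPase Gimap4 (0.78, adjusted p = 0.00352), the muscle enolase Eno3 (0.39, adjusted p = 0.00556), the KRAB zinc finger gene Zfp568 (0.47, adjusted p = 0.000674) and Ccnb1ip1, a factor for meiotic crossing over (1.02, adjusted p = 0.0162). For Fah all 4 WT arrays lay in the interval between the lines, at 7.08 to 7.24 against a highest H275R value of 6.94 and a lowest CH value of 7.25. For Gimap4 all 4 WT arrays (6.88 to 7.20) lay above the highest H275R value (6.83). The ribosomal protein gene Rps3a1 rose by 0.96 (adjusted p = 0.000277), but another probe set of that name differed by 0.01 (adjusted p = 0.984). The second is numbered close to the probe set of Snord73a, a snoRNA within the gene, and the first is not. The change is therefore that of 1 probe set and is not shown for the gene itself.

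Cyb5r3, which encodes a cytochrome b5 reductase, had the smallest p of the transcripts that were lower in CH embryos. It was 11.06 to 11.31 with a median of 11.14 in CH arrays and 11.63 to 11.85 with a median of 11.80 in H275R arrays (difference -0.61 ± 0.06, SE; adjusted p = 0.000371). WT 1 to WT 3 had 11.78, 11.71 and 11.69, and WT 4 had 11.30, in the CH range. Magee2, an X-linked melanoma antigen family gene, was 6.97 to 7.16 in CH arrays and 7.55 to 7.81 in H275R arrays (difference -0.54 ± 0.05, adjusted p = 0.000551). The 4 WT arrays had 7.65, 7.45, 7.49 and 7.24, and none reached the CH range. Mxra7, a gene associated with matrix remodelling, fell by 0.91 (adjusted p = 0.000674) and the T cell receptor variable segment Trav9d-3, one of a set of near-identical copies, fell by 0.62 (adjusted p = 0.00556), although 4 other probe sets named Trav9d-3 differed by no more than 0.04 in size.

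Myh9, the heavy chain of non-muscle myosin IIA, differed from these in its WT values. It was 9.13 to 9.60 with a median of 9.28 in CH arrays and 9.81 to 10.13 with a median of 9.93 in H275R arrays (difference -0.65 ± 0.08, adjusted p = 0.00183). The WT arrays had 10.01, 9.97, 9.80 and 9.93, so that all 4 WT arrays, including WT 4, lay within the H275R range or, for WT 3, just below it, and only the CH line was low.

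Among other genes of high rank that fell in CH embryos, the transcription factor gene Twist2 fell by 0.68 (adjusted p = 0.00335), the zinc finger repressor gene Snai2 by 0.33 (adjusted p = 0.0055), the signalling ligand Wnt2b by 0.48 (adjusted p = 0.00261), and the adhesion genes Clmp and Cdh3 by 0.36 and 0.40 (adjusted p = 0.00439 for both), although a second probe set of Clmp differed by 0.07 (adjusted p = 0.793). For Snai2, the CH arrays lay between 11.24 and 11.40 and the H275R arrays between 11.59 and 11.74, with WT 1 to WT 3 at 11.62 to 11.76 and WT 4 at 11.33. The presynaptic SNARE gene Snap25 was 9.61 to 10.05 in CH arrays and 10.26 to 10.57 in H275R arrays (difference -0.63, adjusted p = 0.00143), with WT 4 at 9.82 and the other WT arrays at 10.29 to 10.60.

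Promoters of 4 of these genes are given because KLF3 binds CACCC boxes and because each gene shows one of the arrangements above. Crip1, a LIM domain gene, was named by the study as a KLF3 target and is described further on. The 4 promoters are those of Slc6a16 (WT 4 with CH) and of Magee2, Myh9 and Crip1 (CH apart from all others). Each runs 5′ to 3′ over 300 bases of the RefSeq annotation of build GRCm38.p6, with CACCC or its complement GGGTG in capitals. The windows lie at chr7:45240503-45240802 (plus strand), chrX:104857218-104857517 (minus), chr15:77842126-77842425 (minus) and chr12:113151762-113152061 (plus).
Slc6a16: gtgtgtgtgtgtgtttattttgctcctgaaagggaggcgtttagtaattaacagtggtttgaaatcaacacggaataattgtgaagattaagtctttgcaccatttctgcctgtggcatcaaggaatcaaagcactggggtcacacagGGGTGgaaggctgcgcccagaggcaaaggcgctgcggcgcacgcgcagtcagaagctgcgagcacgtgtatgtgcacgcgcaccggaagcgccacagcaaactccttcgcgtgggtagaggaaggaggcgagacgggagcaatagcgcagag
Magee2: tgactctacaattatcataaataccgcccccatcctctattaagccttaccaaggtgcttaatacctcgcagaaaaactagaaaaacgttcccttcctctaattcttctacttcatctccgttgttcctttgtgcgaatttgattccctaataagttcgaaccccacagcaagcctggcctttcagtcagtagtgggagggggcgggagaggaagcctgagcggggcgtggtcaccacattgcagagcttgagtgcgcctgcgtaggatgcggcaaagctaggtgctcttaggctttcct
Myh9: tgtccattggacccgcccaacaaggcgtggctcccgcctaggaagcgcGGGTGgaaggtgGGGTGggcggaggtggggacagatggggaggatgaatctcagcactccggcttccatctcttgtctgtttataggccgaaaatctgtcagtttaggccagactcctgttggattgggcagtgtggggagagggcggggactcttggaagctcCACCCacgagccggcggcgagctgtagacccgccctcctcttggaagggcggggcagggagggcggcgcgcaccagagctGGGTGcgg
Crip1: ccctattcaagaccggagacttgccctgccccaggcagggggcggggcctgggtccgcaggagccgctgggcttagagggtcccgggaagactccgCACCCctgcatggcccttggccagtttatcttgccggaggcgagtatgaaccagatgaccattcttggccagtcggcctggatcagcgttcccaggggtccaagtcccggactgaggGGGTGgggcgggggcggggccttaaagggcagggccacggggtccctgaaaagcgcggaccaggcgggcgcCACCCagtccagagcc

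The letters occurred 1 time in the Slc6a16 window, 0 times in Magee2, 4 times in Myh9 and 3 times in Crip1. Among the separating genes that were higher in CH embryos, 173 of 221 had a window and 116 of these held the motif on either strand (67.1%). Among those that were lower, 264 of 335 had a window and 166 held it (62.9%). It was found in 58.8% of the windows of all measured genes and in 56.7% of the 27025 genes with a window, taking the first window listed for each gene. The motif is short and common, and its presence in a window does not show binding.

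The placement of the WT arrays was then summarised over all 813 separating probe sets, on a scale on which 0 is the H275R mean and 1 is the CH mean of each probe set. The median position was 0.078 for WT 1, 0.23 for WT 2, 0.29 for WT 3 and 0.84 for WT 4. WT 4 lay in or beyond the CH range on 610 of the 813 probe sets (75.0%), compared with 96 (11.8%), 171 (21.0%) and 170 (20.9%) for WT 1, WT 2 and WT 3. WT 4 was on the CH side for transcripts of both directions, at 0.88 over those higher and 0.80 over those lower in CH embryos. For scale, each of the 13 arrays was also placed on probe sets chosen without it. The 6 CH arrays then took positions of 0.53 (CH heterozygote 1), 0.58 (CH homozygote 2), 0.64 (CH homozygote 1), 0.96 (CH homozygote 3), 0.97 (CH homozygote 4) and 0.98 (CH heterozygote 2), and the 7 H275R arrays lay between -0.12 and 0.24. WT 4 thus fell inside the range of the CH arrays and outside that of the H275R arrays, WT 1 and WT 2 fell inside the range of the H275R arrays, and WT 3 fell just above it. Of the CH arrays, 3 were placed little beyond the midpoint, so the lines separated less cleanly on arrays that had not been used to choose the probe sets. Over all 39137 probe sets, without selection, the difference of each WT array from the other 3 correlated with the line difference at -0.33 for WT 1, -0.11 for WT 2, -0.06 for WT 3 and 0.42 for WT 4. The 4 contrasts share the same arrays, and no p is given. WT 4 was also the only array with a high value of the trophoblast gene Tpbpa (7.55, against 5.16 or less), whose part in this placement was not tested.

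**Figure D2:**
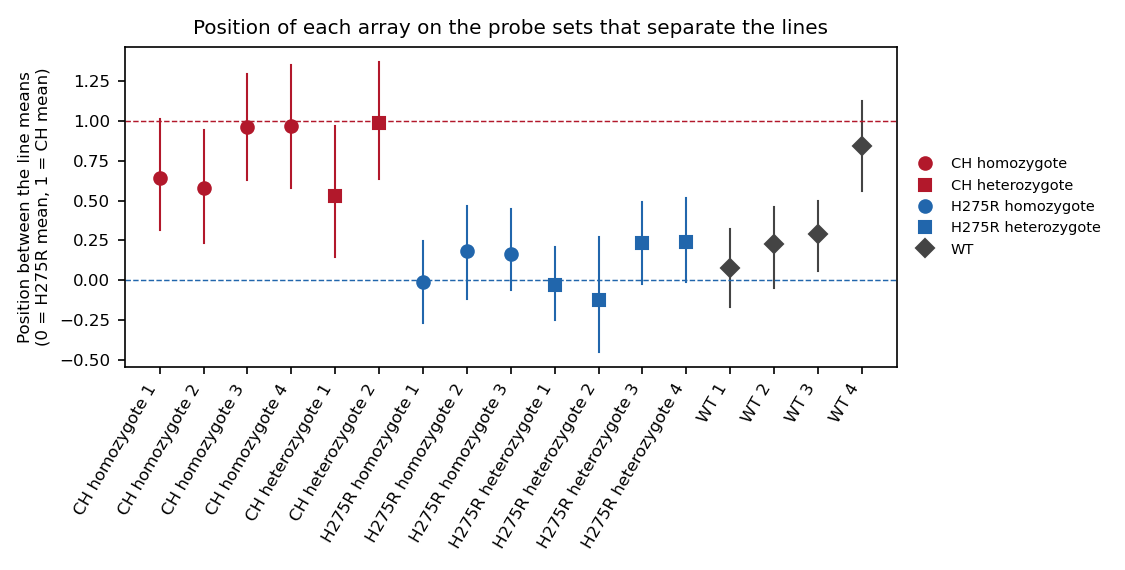
Position of each of the 17 arrays between the H275R mean (0) and the CH mean (1) on the probe sets without overlap; points are medians and bars run from the lower to the upper quartile over 813 probe sets for WT arrays and over 892 to 1375 probe sets, chosen without the array itself, for arrays of the lines. WT 4 (0.84) lies among the CH arrays (0.53 to 0.98), and WT 1 to WT 3 (0.078 to 0.29) lie near the H275R arrays.

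The 813 probe sets were divided by where the WT arrays lay. On 354 (43.5%), WT 4 was the only WT array in or beyond the CH range, compared with 6, 18 and 16 for WT 1, WT 2 and WT 3 alone. On 216 of these, WT 1 to WT 3 were all on the H275R side. This class included Cyb5r3, Slc6a16, Snap25, Snord65, Clmp, Cdh3, Snai2 and Mir344c. On 142 (17.5%) every CH array was apart from all H275R and all WT arrays, 73 higher and 69 lower in CH. With 1 symbol these were 97 genes, led by Snora31, Magee2, Zfp568, Mxra7, Myh9, Fah and Eno3. They also included the nucleolar GTPase Gnl3 (0.29, adjusted p = 0.0145), the platelet isoform of phosphofructokinase, Pfkp (0.45, adjusted p = 0.0098), and Hoxc8, a homeobox gene of trunk patterning (-0.57, adjusted p = 0.0124). On only 39 (4.8%) was every H275R array apart from all CH and WT arrays, and the 29 genes with 1 symbol included Gimap4, Fah, the immune checkpoint ligand Cd276 (-0.37, adjusted p = 0.0114) and the homeobox genes Dlx5 (-0.55, adjusted p = 0.0224) and Dlx3 (-0.47, adjusted p = 0.0265). Fah belonged to both classes since its WT values lay between the lines. WT 4 did not lie with the CH line on every transcript, and for Eno3 it had 9.76 against 9.92 to 10.16 in CH arrays. Klf3 is not among the 813 probe sets. For it WT 4 had 9.55, apart from the CH homozygotes (5.27 to 6.13) but between the values of the CH heterozygotes.

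The comparison was repeated within each allele dose, which uses different embryos for each test but 1 shared estimate of the spread. Between homozygotes (4 CH and 3 H275R arrays), 58 probe sets passed (0.148%), 42 higher and 16 lower in CH. Between heterozygotes (2 CH and 4 H275R arrays), 55 passed (0.141%), 31 higher and 24 lower. At an unadjusted p under 0.05 the counts were 4455 in homozygotes and 3582 in heterozygotes. Of the 58 chosen in homozygotes, 53 differed in the same direction in heterozygotes, with a median difference of 0.45 in that direction against 0.69 in the homozygotes in which they were chosen. Of the 55 chosen in heterozygotes, all 55 differed in the same direction in homozygotes, with a median of 0.43 against 0.77. Passing in both doses were 16 probe sets, among them Snora31 (1.14 in homozygotes and 0.94 in heterozygotes), Mid1 (1.26 and 1.44), Rps3a1 (0.84 and 1.12), Snrpa1 (1.01 and 0.93), Snora75 (0.76 and 0.75), Mxra7 (-0.85 and -1.03), Cyb5r3 (-0.55 and -0.69) and Magee2 (-0.55 and -0.50). These counts were sensitive to the fit and to single arrays, between 12 and 191 in homozygotes and between 6 and 259 in heterozygotes over the alternatives other than the cartilage covariate.

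A test of the difference between the doses (interaction) passed for 2 probe sets of 39137 (0.00511%), with 1230 at an unadjusted p under 0.05. One was Klf3, at -3.77 in homozygotes and -0.23 in heterozygotes (interaction -3.54, adjusted p = 0.000751). The other was Ctse, the aspartic protease cathepsin E. It had 9.30, 10.42, 9.84 and 10.04 in CH homozygotes and 6.85 and 7.45 in CH heterozygotes, against 6.40 to 6.68 in H275R homozygotes and 6.73 to 6.89 in H275R heterozygotes. The line difference was 3.32 in homozygotes and 0.35 in heterozygotes (interaction 2.96, adjusted p = 0.0177). Of the WT arrays, 3 had 6.28 to 6.79, and WT 4 had 10.39, inside the range of the CH homozygotes. The high Ctse value of WT 4 therefore stood beside a Klf3 value of 9.55, whereas all 4 CH homozygotes with high Ctse had Klf3 values of 6.13 or less.

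**Figure D3:**
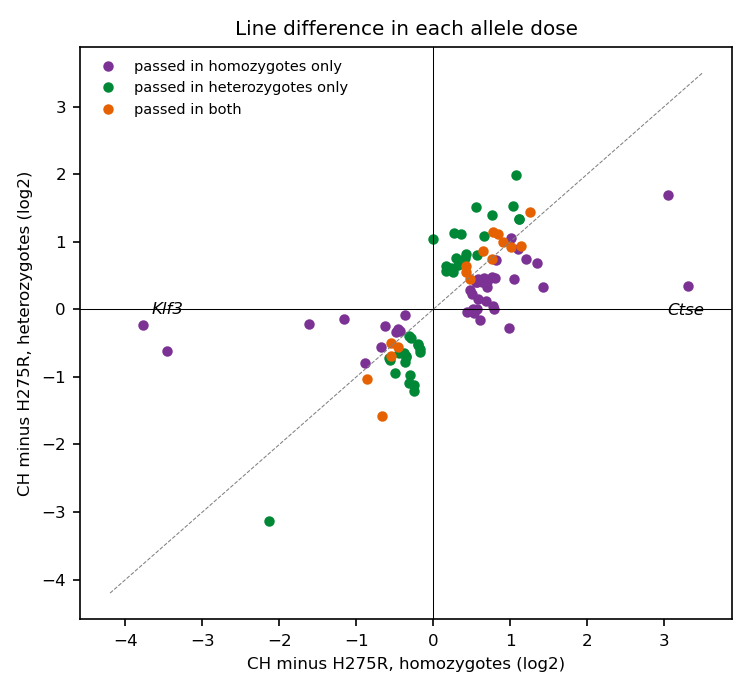
Difference between CH and H275R embryos (log2) in homozygotes, on the x axis, and in heterozygotes, on the y axis, for probe sets that passed (adjusted p under 0.1) in either; orange points passed in both and the dashed line marks equal differences. Most points lie in the same quadrant of both, while Klf3 (-3.77 and -0.23) and Ctse (3.32 and 0.35) lie near the horizontal axis.

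Gene groups were then described by counts and by their median difference, beside 6.29% passing (528 higher, 2.38%, and 867 lower, 3.91%) and a median of -0.002 over all 22180 genes with 1 symbol. Small nucleolar RNAs and related genes were higher in CH embryos. Of 78 snoRNAs, 29 rose and 1 (Snora78) fell, 71 of 78 differences were above 0, and the median was 0.26. On leaving out single arrays the number passing was between 17 (without CH homozygote 3) and 35, with 18 without CH homozygote 4, H275R homozygote 1 or H275R heterozygote 1, and the median was between 0.24 and 0.30. The largest difference was that of Scarna6, a small Cajal body RNA, which was 10.73 to 11.49 in CH arrays and 8.68 to 10.38 in H275R arrays (1.48, or 2.78-fold, adjusted p = 0.00979). WT values of Scarna6 were spread over the range of both lines, at 10.13, 10.82, 9.13 and 11.15. Snord13 differed by 1.19 (adjusted p = 0.0777) but overlapped, with 3 CH arrays at 7.92 to 8.82 and 3 at 6.46 to 7.17, H275R arrays at 5.84 to 6.91, and WT 4 at 8.58. The mean level of the list was 8.24 to 8.46 in CH arrays, 7.91 to 8.16 in H275R arrays, 7.95 to 8.19 in WT 1 to WT 3 and 8.44 in WT 4.

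Genes that host snoRNAs in their introns were also described. Of 27 host genes listed, 10 rose and 0 fell, with a median of 0.16. The number passing was 5 without CH homozygote 3 and 6 without CH homozygote 4. The hosts that rose included the non-coding hosts Snhg3 (0.54, adjusted p = 0.00995), Snhg12 (0.37, adjusted p = 0.0582) and Snhg1 (0.34, adjusted p = 0.0239). Taking as host the gene whose RefSeq span contains a snoRNA, without regard to strand, 63 snoRNAs had a measured host. Of the 24 that passed, 23 were higher, and the host also passed in the same direction for 13 and did not pass for 11. Snora73a differed by 0.89 and its host Snhg3 by 0.54, and Scarna6 differed by 1.48 and its host Atg16l1 by 0.32 (adjusted p = 0.0227). In contrast, Snora31 differed by 1.05 and its host Tpt1 by 0.09 (adjusted p = 0.573), and Snora75 differed by 0.76 and its host Ncl by 0.20 (adjusted p = 0.116). For Rps3a1 and Rpl3 the order depended on the probe set. The probe set used for Rps3a1 differed by 0.96, and Snord73a and Snord73b by 0.59 and 0.32. Another probe set of Rps3a1, numbered close to that of Snord73a, differed by 0.01 (adjusted p = 0.984), below both snoRNAs. The probe set used for Rpl3 differed by 0.89, and Snord43 and Snord83b by 0.29 and 0.10. The 2 other probe sets of Rpl3 differed by 0.16 and did not pass. The difference of the snoRNA was above that of its host in 44 of the 63 pairs and in 21 of the 24 in which it passed. These counts, and those of hosts that passed, took 1 probe set per host, including the ones named for Rps3a1 and Rpl3. A host that did not pass is not shown to be unchanged.

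Regulators of splicing found in nuclear speckles were also higher. Of 22 measured, 7 rose and 0 fell, and all 22 differences were above 0, with a median of 0.16. Srsf5 rose by 0.29 (adjusted p = 0.018), the kinase Clk4 by 0.37 (adjusted p = 0.0719) and the cyclin Ccnl2 by 0.26 (adjusted p = 0.0227), although a second probe set of Ccnl2 differed by 0.02 (adjusted p = 0.88). The number passing was 2 without CH homozygote 3 or 4, 3 without CH heterozygote 2, H275R homozygote 1 or H275R heterozygote 1 or 2, and 4 with each array centred on its median. The cytoplasmic ribosomal proteins, 68 genes, had a median of 0.08, with 7 higher and 1 (Rpl34) lower. In place of these 8, 4 passed without CH heterozygote 2 and 5 without CH homozygote 3, H275R homozygote 1 or H275R heterozygote 1 or 2.

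**Figure D4:**
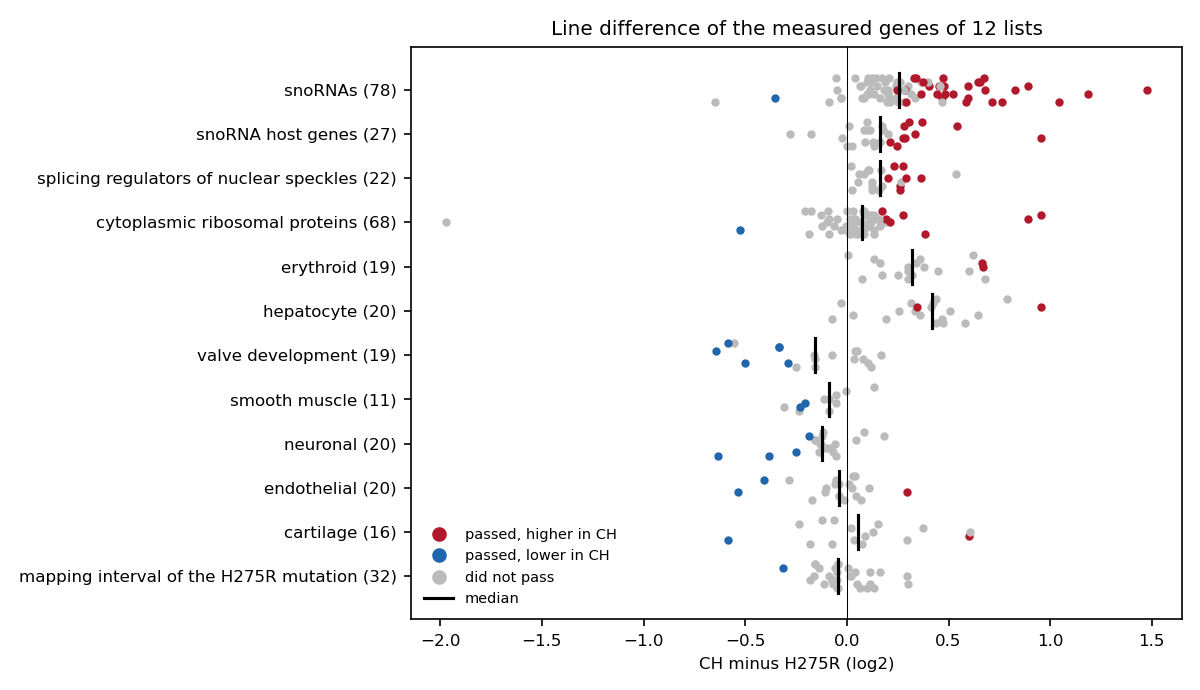
Difference between CH and H275R embryos (log2) for every measured gene of 12 lists, with the number of genes in brackets; red points passed and were higher in CH, blue points passed and were lower, grey points did not pass, and black bars are medians. The snoRNA median is 0.26 and the hepatocyte median 0.42, and the valve development median is -0.16.

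Of 19 measured genes of heart valve development, which act in endocardial cushions and in other mesenchyme, 6 fell and 0 rose in CH embryos. Of the 19 differences, 12 were below 0 and 7 above, with a median of -0.16. The 6 that fell were Snai1 (-0.64, adjusted p = 0.0239), Sox9 (-0.58, adjusted p = 0.0678), Bmp4 (-0.50, adjusted p = 0.0598), Snai2, Hey2 (-0.33, adjusted p = 0.0562) and Tgfb2 (-0.29, adjusted p = 0.00956). Snai1 was 6.86 to 7.83 in CH arrays and 7.83 to 8.10 in H275R arrays, which did not overlap but touched. The number passing was 3 without CH heterozygote 2, H275R homozygote 1 or H275R heterozygote 2. The mean level of the list was 9.37 to 9.46 in CH arrays and 9.53 to 9.65 in H275R arrays, with 9.40 in WT 4 and 9.55 to 9.57 in the other WT arrays. These genes are expressed in many tissues of the embryo, and which tissue contributed was not tested. Of 20 neuronal genes 4 fell and 0 rose (median -0.12), namely Snap25, Ncan (-0.38, adjusted p = 0.00979), Elavl3 (-0.25, adjusted p = 0.0807) and Vamp2 (-0.19, adjusted p = 0.0778). Of 11 smooth muscle genes 2 fell, the coactivator Myocd (-0.23, adjusted p = 0.0358) and the contractile protein gene Smtn (-0.21, adjusted p = 0.0669), a second probe set of which differed by -0.07 (adjusted p = 0.565). On leaving out single arrays between 2 and 5 neuronal genes passed, with 2 on leaving out any of CH homozygote 3, CH homozygote 4, CH heterozygote 2, H275R homozygotes 1 and 3 and H275R heterozygotes 1, 3 and 4. The smooth muscle count was 1 on leaving out any of CH homozygotes 3 and 4, H275R homozygotes 1 and 2 and H275R heterozygotes 1 and 2. Among 20 endothelial genes Sox18 and Plvap fell (-0.53 and -0.41) and Egfl7 rose (0.30). Of 336 numbered zinc finger genes, 25 fell and 5 rose, with a median of -0.02. In place of these 30, between 16 (without H275R heterozygote 2) and 43 (without CH heterozygote 1) passed on leaving out 1 array, with 17 to 19 without CH homozygote 3, CH heterozygote 2, H275R homozygote 1 or H275R heterozygote 1.

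Erythroid and hepatocyte genes had the highest list medians among tissue lists other than the Y-linked genes, at 0.32 over 19 genes and 0.42 over 20 genes, but few passed. In the erythroid list all 19 differences were above 0 and 2 genes rose: Klf1, the erythroid activator of this factor family (0.67, adjusted p = 0.0892), and Ermap (0.66, adjusted p = 0.0732). Klf1 was 8.17 to 9.40 in CH arrays and 7.78 to 8.65 in H275R arrays, with WT values of 8.23, 8.01, 8.93 and 9.22. In the hepatocyte list Fah and Serpina1a rose. These counts rested on single arrays. The erythroid count was 7 without CH homozygote 1, 3 without H275R heterozygote 3, 2 without CH heterozygote 1, 1 without H275R heterozygote 1 or 4, and 0 without any 1 of the other 8 arrays. The hepatocyte count was 5 without CH heterozygote 1, 2 without CH homozygote 1, CH homozygote 3 or H275R heterozygote 4, and 1 without any 1 of the other 9. The CH arrays were spread widely on both lists, from 8.33 to 9.29 on the erythroid and from 7.70 to 9.11 on the hepatocyte mean, with H275R arrays from 8.18 to 8.73 and from 7.81 to 8.35. A similar spread marked the cartilage list, whose mean was 8.61 to 8.87 in CH homozygote 2, CH homozygote 4 and CH heterozygote 2. It was 7.73 to 7.85 in the other 3 CH arrays, against 8.07 to 8.29 in H275R arrays. WT 1 to WT 3 had 8.15 to 8.27, and WT 4 had 7.74, in the range of the lower CH arrays. Of 16 cartilage genes Hapln1 rose (0.60, adjusted p = 0.0997) and Sox9 fell, a count of 2 that was between 0 and 2 on leaving out 1 array and held only without CH homozygote 1 or CH heterozygote 1. With the cartilage mean of each array as a covariate, 4190 probe sets passed between the lines in place of 2453. No gene of the embryonic globin, hypoxia, cardiac muscle, macrophage, placenta, Hsd3b or Y-linked lists passed in limma (0 of 71 genes), with 10 at an unadjusted p under 0.05 and 0 with the unmoderated test named in the methods after the same adjustment. On leaving out 1 array, 1 hypoxia gene passed without CH heterozygote 1, 1 placental gene without H275R homozygote 2, and 1 and 2 cardiac muscle genes without CH homozygote 1 and H275R heterozygote 4.

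**Figure D5:**
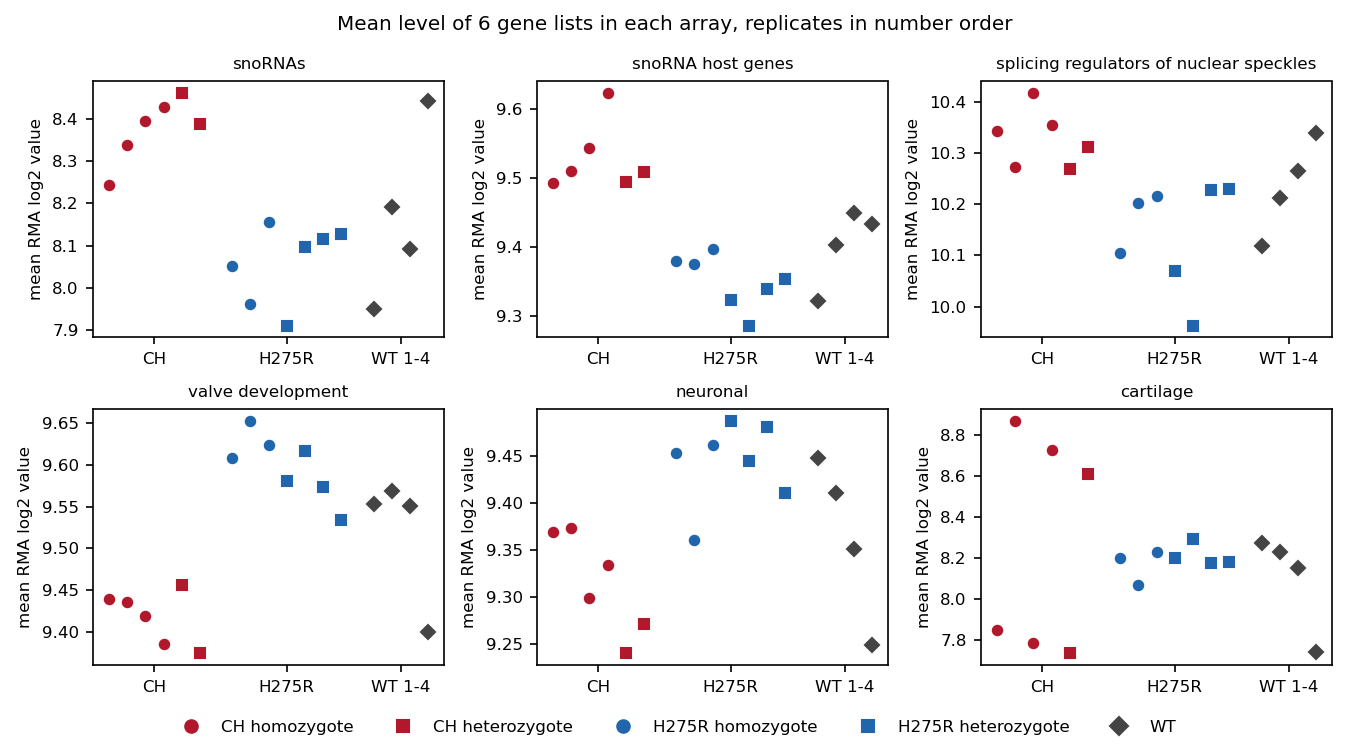
Mean RMA log2 value of 6 gene lists in each of the 17 arrays, with CH arrays in red, H275R arrays in blue and WT arrays in grey; circles are homozygotes, squares heterozygotes and diamonds WT. The lines do not overlap for snoRNAs (8.24 to 8.46 in CH, 7.91 to 8.16 in H275R), their host genes, splicing regulators or valve development, where WT 4 (9.40) lies with CH, while the CH arrays fall on either side of the H275R arrays for cartilage.

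The 5 genes named by the study as KLF3 targets were followed. Crip1 was 9.72 to 10.89 with a median of 10.23 in CH arrays and 9.37 to 9.64 with a median of 9.50 in H275R arrays (0.80, adjusted p = 0.0197). The WT arrays had 9.41, 9.44, 9.64 and 9.70, none in the CH range, although WT 4 (9.704) was only just below the lowest CH value (9.716). Pqlc3, a transporter-like membrane protein gene, was 7.18 to 9.40 in CH arrays and 7.03 to 7.55 in H275R arrays (0.85, adjusted p = 0.096), and the lines overlapped. Of the 5 differences 4 were above 0 and 1 was below. They ran from -0.015 to 0.85 with a median of 0.31, and 3 of the genes did not pass. In the Klf and Sp family, 2 of 27 genes passed, Klf3 itself and Klf1. On leaving out 1 array the target count was 1 for 11 of the 13 arrays (2 without CH homozygote 4 and 3 without CH heterozygote 1), and the family count was 1 for 9 of them, the exceptions being CH homozygotes 1 and 2, CH heterozygote 1 and H275R heterozygote 3.

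Short RNAs of 2 further clusters were described after their values had been seen. Of 484 microRNA genes measured, 35 rose and 8 fell in CH embryos. All 9 measured genes of the Mir344 family, which lie together on chromosome 7, matched a mature sequence, and 5 of them fell (family median -0.65). Mir344c was 4.08 to 5.53 in CH arrays and 5.65 to 6.34 in H275R arrays, without overlap (-1.24 ± 0.19, SE; adjusted p = 0.00769). WT 1 to WT 3 had 6.07 to 6.25 and WT 4 had 4.87. Mir344-2 differed by -1.03 (adjusted p = 0.0639), Mir344 by -0.85 (adjusted p = 0.0621), Mir344e by -0.84 (adjusted p = 0.0363) and Mir344d-3 by -0.65 (adjusted p = 0.0285). Mir344b (-0.54, adjusted p = 0.131), Mir344d-1 (-0.09), Mir344d-2 (0.04) and Mir344f (-0.04) did not pass. The 3′ arms are shown to compare members that passed and members that did not, with the seed (bases 2 to 8) in capitals; sequences are from RefSeq, build GRCm38.p6, minus strand, with the copy of Mir344c at chr7:61837323-61837345.
miR-344c-3p (Mir344c): uGAUCUAGucaaagccugacagu
miR-344-3p (Mir344 and Mir344-2): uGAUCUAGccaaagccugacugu
miR-344e-3p (Mir344e): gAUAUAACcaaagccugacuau
miR-344d-3p (Mir344d-1, Mir344d-2 and Mir344d-3): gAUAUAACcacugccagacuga
miR-344b-3p (Mir344b): cAUUUAGCcaaagccugacugu
miR-344f-3p (Mir344f): cUCUAGCCaggaccugacuac

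Mir344c, Mir344 and Mir344-2 shared 1 seed (GAUCUAG), and these were the 3 largest decreases of the family. The decreases of Mir344 (-0.846 ± 0.228, SE) and of Mir344e (-0.839 ± 0.195), which has another seed, were nearly equal. Mir344e and the 3 Mir344d genes shared another (AUAUAAC), of which Mir344e and Mir344d-3 passed and Mir344d-1 and Mir344d-2 did not. The members are near-identical copies whose signals could be mixed, and whether a probe set reads the precursor or the mature RNA is not given in the sources used here. A paternally expressed neighbour gene, Ndn, differed by 0.06 (adjusted p = 0.685).

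The second cluster lies between Dlk1 and Dio3 on chromosome 12, an imprinted region with microRNA genes expressed from the maternal chromosome. Of 43 microRNA genes measured there, 8 rose and 0 fell, 42 differences were above 0 and the median was 0.54, beside a median of 0.06 over the 432 microRNA genes outside both clusters. Mir341 was 9.52 to 10.58 in CH arrays and 9.12 to 9.59 in H275R arrays (0.66, adjusted p = 0.0376), with WT arrays at 9.40 to 9.69. Mir679 (0.58, adjusted p = 0.0302), Mir758 (0.61, adjusted p = 0.0394) and Mir300 (0.74, adjusted p = 0.0979) were of similar size, and none of the 8 was free of overlap. The values of Mir493 were highest in CH homozygote 4 and CH heterozygote 2 (10.02 and 10.11) and 8.85 to 9.43 in the other CH arrays. The long transcripts of the region did not pass, with Meg3 at 0.07 (adjusted p = 0.782) and Rian at 0.16 (adjusted p = 0.503).

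Where the genes lie relative to Klf3 was also examined, in the gene order of RefSeq. Of the 100 measured genes on each side of Klf3 on chromosome 5, 14 of 200 passed (7%, excluding Klf3), compared with 63 of 860 (7.33%) farther than 200 genes away on the same chromosome and 6.26% on other chromosomes. Within 25 genes on each side 2 of 50 passed, the RNA methyltransferase family gene Nsun7 (-0.31, adjusted p = 0.0623) and Limch1 (-0.20, adjusted p = 0.0268). Over chromosomes the share passing was between 4.34% (X) and 7.85% (chromosome 14), with 7.38% on chromosome 5. Of 32 measured genes listed for the mapped interval of the H275R mutation, not counting Klf3 itself, Nsun7 passed, and of 14 genes known to vary between inbred strains Wdfy1 passed (0.29, adjusted p = 0.0842). The interval count was 2 without CH heterozygote 1 and 0 without CH homozygote 1, CH homozygote 3, H275R homozygote 1, H275R homozygote 3 or H275R heterozygote 1, and Wdfy1's list had 0 passing without any 1 of 9 arrays.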

How the data were processed

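Whole embryos at E12.5 were profiled on Affymetrix GeneChip ST arrays, 1 array per embryo RNA. The values were deposited on a log2 scale and, per the labels and methods, the authors made them by robust multi-array averaging (RMA) in Partek, which corrects background, equalises quantiles and summarises probes into probe sets, so that a difference in total RNA between embryos is removed and low levels are compressed. Scanner intensities were not used here, the array's number limits precision, and no value column lacked a sample (0). No genome build was used for the deposited values. Probe sets were named from the platform annotation: 23521 of 39137 had 1 gene symbol, 1820 had several and 13796 were not listed, and 23328 matched RefSeq (GRCm38.p6), whose symbols were used. A gene was represented by its probe set with the highest mean over the 13 arrays of the lines.

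Line differences (CH minus H275R) were fitted with limma 3.58.1 in R 4.3.3 (lmFit, eBayes) with 1 mean for each line, or 1 mean for each genotype for the tests within a dose and the interaction. P-values were adjusted over all 39137 probe sets by the Benjamini-Hochberg method, with a threshold of 0.1, the false discovery rate used by the study. Embryos were taken as separate animals, and none of the array pairs held identical values (0). Positions of WT arrays used probe sets chosen without them. Genes were named as the 15 with the smallest p and the 10 with the largest difference in each direction among those without overlap, and the members of gene lists with the largest changes. The comparison, the genes and the lists were chosen with earlier results of these data known, so no list was tested as a whole. Replicate numbers were not used to pair arrays across groups in the main fits. The fits were tested on simulated data. Alternatives covered the model, scaling, covariates, thresholds, filters and each array left out in turn. Mature microRNA and promoter sequences were read from RefSeq tables.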

Additional observations from a re-analysis of the deposited data

Results flagged for a closer look

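Of 240 groups of arrays examined for the named genes, 16 held an array far from the rest by Dixon's criterion at the 95% level, and chance alone gives about 1 in 20. In 10 of the 16 the array was WT 4. WT 4 was above the other WT arrays for Rps3a1 (11.14 against 10.26 to 10.40), Tmem184a (8.01 against 6.67 to 6.88) and Rpl3 (10.90 against 10.19 to 10.26), and below them for Mxra7 (9.05 against 9.43 to 9.50), Clmp (10.25 against 10.66 to 10.72), Cdh3 (9.40 against 9.70 to 9.75), Trav9d-3 (6.04 against 6.98 to 7.10), Mir344c (4.87 against 6.07 to 6.25), A230056P14Rik (5.86 against 7.36 to 7.65) and Vamp2 (10.12 against 10.30 to 10.34). In each of these 10 genes WT 4 departed from the other WT arrays in the direction of the CH line.

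In the CH line, CH heterozygote 1 was low for Gimap4 (6.996 against 7.36 to 7.57), CH homozygote 4 was high for Snhg12 (7.32 against 7.20 to 7.23) and CH homozygote 2 was high for Myod1 (8.95 against 8.24 to 8.46). In the H275R line, H275R homozygote 3 was low for Cyb5r3 (11.63 against 11.78 to 11.85), H275R homozygote 2 was low for P4ha3 (9.46 against 9.69 to 9.76) and H275R homozygote 1 was high for Pqlc3 (7.55 against 7.03 to 7.26). The line difference itself depended on the number of mutant alleles for Klf3 (interaction -3.54, adjusted p = 0.000751 in limma) and for Ctse (interaction 2.96, adjusted p = 0.0177).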

How the results depend on the processing

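The 122 genes and microRNAs examined kept the direction of their line difference under all 25 alternatives run for them (3050 values), with 523 values no longer past the threshold and 71 genes past it throughout. The positions of the 4 WT arrays moved by less than their own spread, between 0.739 and 0.891 for WT 4. The line difference passed for 2453 probe sets, for 1072 at an adjusted p under 0.05, for 4190 with the cartilage mean as a covariate and for 1323 to 2996 on leaving out 1 array. Student's t-test gave 2034 after adjustment and 7031 at an unadjusted p under 0.05, against 7069 in limma. The study's methods name this test in general and name no test for the arrays. Between homozygotes the count was 58, with 92 under an intensity trend, 129 with array weights, 375 with the cartilage mean, 25 at an adjusted p under 0.05, 191 over probe sets above the median level and 12 to 109 on leaving out 1 array. Between heterozygotes it was 55, with 7 in a fit of all 17 arrays, 119 under an intensity trend, 10 with array weights, 17 with the level of the Y-linked gene Kdm5d as a covariate, 399 with the cartilage mean, 10 at an adjusted p under 0.05, 259 over probe sets above the median level and 6 to 117 on leaving out 1 array. The interaction gave 2, and 2 to 6 on leaving out 1 array. The number without overlap was 813, with 52 for a gap of at least 0.2 and 892 to 1375 on leaving out 1 array, since the rule then has fewer arrays to meet. The other causes were not tested. Of 16 pairs of same-numbered arrays, 5 correlated above 0.1 (range -0.14 to 0.43). Within the CH line such pairs correlated at 0.43 and 0.27, and within the H275R line at 0.115, 0.067 and 0.33. Between the lines they ran from -0.14 to 0.115. Whether same-numbered embryos of a line shared a litter was not tested. With the replicate number as a block the counts were 2917 for the line difference, 28 in homozygotes, 73 in heterozygotes and 1 for the interaction. Few heterozygous CH embryos, unknown litters, a sex that is read only from Y-linked transcripts, and narrow gaps between lines limit what these arrays resolve.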
